A study of Oryza sativa with 18 samples.

Results

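The libraries compared here are 6 of 18 RNA-sequencing libraries of rice leaf: 3 of a knockout line of FKBP57 and 3 of a knockout line of FKBP73, all exposed to 150 mM NaCl for 4 hours. They were chosen by genotype and treatment alone. The other 12 libraries were 3 of the wild-type cultivar Ningjing 4 under the same salt treatment, and 3 each of the FKBP57 knockout, the FKBP73 knockout and wild type in normal nutrient solution (control). The labels do not say how many independent lines or plants stand behind a knockout, how the knockouts were made or when the control leaves were harvested. The FKBP57 and FKBP73 genes were not analysed here. No table used here pairs the rice identifiers of the count table with gene names. Unlike those of the gene lists below, their identifiers were not written down from general knowledge either. The loss of either transcript was therefore not examined.

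FK506-binding proteins are peptidyl-prolyl isomerases, enzymes that turn the bond before a proline and so help proteins fold. Large plant members of the family also carry repeats that dock onto the chaperone HSP90. The study's title places both proteins in salt tolerance by way of SOS signalling, in which a calcium sensor and a protein kinase activate a plasma membrane antiporter that exports sodium. Comparing the knockouts with each other under salt asks in which genes the loss of one protein left the stressed leaf different from the loss of the other.

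Under salt, 65 of 25957 tested genes (0.250%) differed between the knockouts, 52 higher (0.200%) and 13 lower (0.0501%) in the FKBP57 knockout. None of the 186 tested genes on lists of salt, hormone, stress, wall and photosynthesis genes was among them. In some of the 65 a transcript was counted in 1 knockout alone: 13 of the 52 higher genes had no count in any FKBP73 knockout salt library, and 3 of the 13 lower genes had none in any FKBP57 knockout salt library. Of the 65, 41 were also called between the knockouts without salt, and wild type was nearer to the FKBP73 knockout for most. The test was edgeR's quasi-likelihood test on the deposited counts of all 18 libraries, and a gene counted as called where its p, adjusted by Benjamini-Hochberg over all tested genes, was under 0.05. Levels are in CPM, read counts scaled to a common library total after TMM scaling. A fold change is the FKBP57 knockout over the FKBP73 knockout, so a positive log2 value means higher in the FKBP57 knockout.

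Depth was 31253988 to 34630598 counts in the FKBP57 knockout salt libraries and 28344668 to 33443482 in the FKBP73 knockout salt libraries. Replicates correlated at 0.943 to 0.978 (Pearson, log2-CPM) in the FKBP57 knockout and at up to 0.98 in the FKBP73 knockout. Both pairs with FKBP57 knockout salt replicate 3 were below the pair without it, and this library stood apart on the second principal component of the 6 libraries. That library also had 53.4 summed CPM of 5 dividing tissue markers, against 11.6 and 12.4 in its replicates and 18.1, 22.8 and 23.0 in the FKBP73 knockout. The 21 photosynthesis genes that mark leaf were all present, with a summed 21800, 27419 and 23645 CPM in the FKBP57 knockout and 13606, 8605 and 19527 CPM in the FKBP73 knockout. Of 7 root markers, 3 or 4 were at 0 in each of the 6 libraries, and the list summed to 4.86 to 6.21 CPM in the FKBP57 knockout and 6.72 to 9.64 CPM in the FKBP73 knockout. The part of tissue makeup in the differences below was not tested, and in bulk leaf fewer cells of a type and less RNA per cell cannot be told apart.

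Os03g0115800, a gene of chromosome 3 by its identifier, had 79.9, 94.8 and 96.6 CPM in the FKBP57 knockout salt libraries, against 0 counts in each of the 3 FKBP73 knockout salt libraries. The groups did not overlap, and the gene was at least 2904-fold higher, with the FKBP73 knockout set to a floor of 3 counts over the group (edgeR adjusted p = 5.2e-05). Without salt it had 111, 99.8 and 100 CPM in the FKBP57 knockout and again 0 counts in the FKBP73 knockout, at least 3198-fold higher (edgeR adjusted p = 8e-05). In wild type only 1 of 6 libraries, a salt library, had any count, with 3 reads. So the transcript was abundant in every FKBP57 knockout library, treated or not, and at or near 0 in the 12 others.

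Os03g0299700, also of chromosome 3, followed the same pattern. It had 83.5, 67.4 and 80.6 CPM in the FKBP57 knockout under salt, against 0 counts in all 3 FKBP73 knockout salt libraries, at least 2477-fold higher (edgeR adjusted p = 0.00012). Under control it had 63.9, 103 and 59.6 CPM in the FKBP57 knockout and 0 counts in the FKBP73 knockout, a call (edgeR adjusted p = 0.00013) that was lost in a fit of only the control groups compared (0.059). All 6 wild-type libraries were at 0 as well.

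The most strongly lower genes that passed the rule for printing behaved differently, since in the FKBP73 knockout and in wild type each salt library was above each control library. Os09g0344500 of chromosome 9 had 5.81, 3.02 and 1.74 CPM in the FKBP57 knockout salt libraries, against 92.7, 50 and 26.1 CPM in the FKBP73 knockout salt libraries. The lowest FKBP73 knockout library was above the highest FKBP57 knockout library, and the log2 ratio of the knockouts was -4 with an SE of 0.63 (adjusted p = 0.009, edgeR). Wild type under salt had 60.1, 42.1 and 94.4 CPM, within or near the range of the FKBP73 knockout. Under control the gene averaged 1.09 ± 0.58 CPM in the FKBP57 knockout, 5.05 ± 2.05 in the FKBP73 knockout and 2.99 ± 1.99 in wild type (SD, n = 3 each). The control difference, -2.23 on the log2 scale with an SE of 0.62, did not pass (edgeR adjusted p = 0.55) but was called by DESeq2 (adjusted p = 0.038). The salt call of this gene ended without FKBP57 knockout salt 2 (edgeR adjusted p = 0.078) or salt 3 (0.065), or without FKBP73 knockout salt 1 (0.053), and in a fit of only the 6 libraries compared (0.064).

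Os02g0240100 of chromosome 2 had 15.9, 19.3 and 15.6 CPM in the FKBP57 knockout under salt, against 121, 100 and 96.9 CPM in the FKBP73 knockout under salt. The libraries did not overlap, and the log2 ratio was -2.64 with an SE of 0.47 (adjusted p = 0.021, edgeR). Wild type under salt lay between the knockouts, at 53.5, 40.6 and 56.3 CPM. Under control the FKBP57 knockout had 14.3, 6.17 and 30.1 CPM and the FKBP73 knockout 40.2, 28.2 and 21.5 CPM, and these libraries overlapped (log2 fold change -0.83, SE 0.44, edgeR adjusted p = 1). The change of the knockout difference between salt and control was -1.81 on the log2 scale (SE 0.63, unadjusted p = 0.011, edgeR adjusted p = 1). The salt call rested on all of the libraries except FKBP73 knockout salt 3: leaving out any other of the 6 gave an edgeR adjusted p between 0.066 and 0.15.

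**Figure D1:**
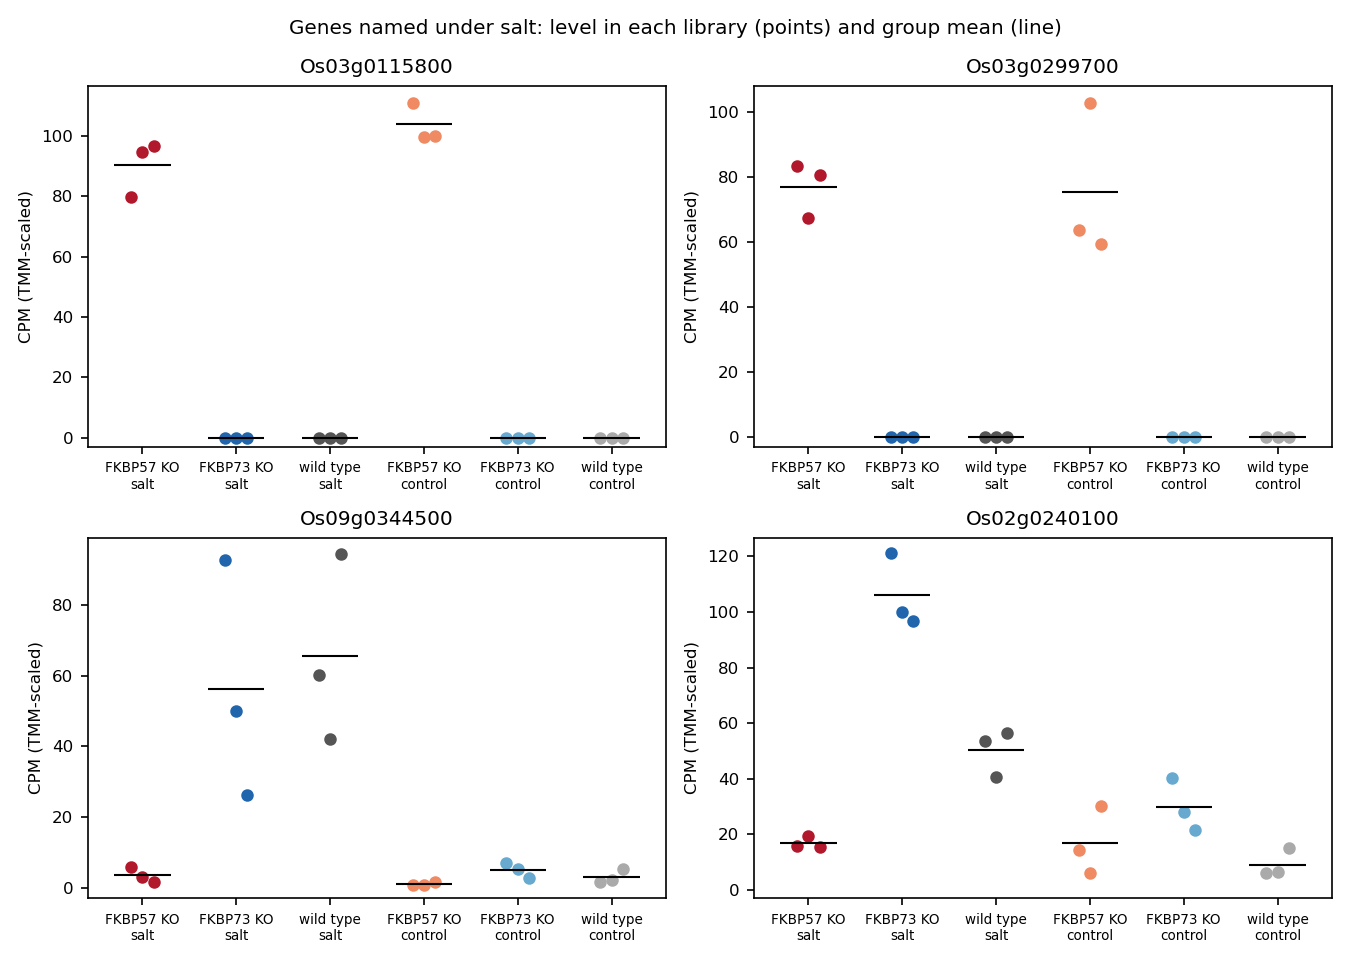
Level of the 4 printed genes in each of the 18 libraries, in CPM on TMM-scaled totals (y axis, linear), by group (x axis), with points for libraries and a line for the group mean. Os03g0115800 and Os03g0299700 lie at 59.6 CPM or more in every FKBP57 knockout library and at or near 0 in all others, whereas Os09g0344500 and Os02g0240100 are low in the FKBP57 knockout under salt and high in the FKBP73 knockout under salt.

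Beyond these genes, the 52 higher genes had a median log2 fold change of 4.15, from 1.03 up, and 27 of them were at least 16-fold higher by the fitted value. The median was the same with the genes at 0 in the FKBP73 knockout set to their bound. Those 13 genes averaged 1.53 to 90.4 CPM in the FKBP57 knockout, at least 49.2-fold to at least 2904-fold higher, and 8 of them had no count in any of the 12 libraries of the FKBP73 knockout and wild type. The 13 lower genes had a median log2 fold change of -2.64, and 4 were at least 16-fold lower by the fitted value. The 3 lower genes without counts in the FKBP57 knockout salt libraries averaged 0.579 to 9.01 CPM in the FKBP73 knockout, and 1 of them had no count in the FKBP57 knockout controls either.

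The called genes were not mainly abundant transcripts. In the group where they were higher, 21 of the 52 higher genes and 6 of the 13 lower genes averaged at least 10 CPM, and 2 and 1 averaged under 1 CPM. The highest mean was 176.5 CPM among the higher genes and 133 CPM among the lower genes. Precision limited what could be called. Among the 12666 genes with at least 10 CPM over the 6 libraries, the median half-width of the 95% interval of the log2 fold change was 0.5. It was 0.85 for genes of 1 to under 10 CPM and 1.61 for genes under 1 CPM.

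The count of 65 was 43 without FKBP57 knockout salt 3, the library that stood apart, and 40 of these were among the 65. It was 31 without FKBP73 knockout salt 1 and 38 without FKBP73 knockout salt 2. DESeq2 called 224 genes, 149 higher and 75 lower, including all 65, and with only genes of at least 5 CPM on average 25 were called. The count was 58, 46 higher and 12 lower, without 3 libraries picked by eye, a choice that was not planned. The 3 libraries were salt 3 and control 3 of the FKBP57 knockout and control 3 of wild type. Of the 58 genes, 47 were among the 65.

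Whether the knockouts differed in the same genes without salt was read from the 6 control libraries. Their values of a gene do not enter its salt fold change. They share the filter, the TMM scaling and the estimate of the spread with the salt test. A fit of only the 6 salt libraries called 56 genes, of which 43 were among the 65. Under control 48 genes (0.185%) were called, 43 higher (0.166%) and 5 lower (0.0193%) in the FKBP57 knockout, and 3.96% of all genes had an unadjusted p under 0.05. Of the 48 called genes, 41 were called under salt too, 37 higher and 4 lower and each in the same direction, which is 63.1% of the salt calls and 85.4% of the control calls. The control count depended on the libraries fitted: it was 2 in a fit of only the 6 control libraries, 27 without FKBP73 knockout control 1 and 30 without FKBP73 knockout control 3. For 33 of the 41 the fitted log2 fold changes under salt and control were within 1 of each other. Some of these genes had no count in the same knockout under both conditions. Their fitted values have no upper bound, so for them a similar size of difference was not measured. The control libraries of the knockouts did not overlap, in the direction of the salt difference, for 43 of the 52 higher genes and 11 of the 13 lower genes. Among all tested genes these shares were 3.77% for higher and 1.95% for lower.

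Among called genes whose higher group averaged 10 CPM or more, the control comparison had the same pair of highest fold changes and, as its lower genes of largest change, Os01g0382450 and Os07g0456400. Os01g0382450 of chromosome 1 had 0, 2 and 3 counts in the FKBP57 knockout controls, against 338, 492 and 329 counts in the FKBP73 knockout controls. The log2 ratio was -7.64 with an SE of 0.6 (adjusted p = 8e-05, edgeR), and in a fit of only the control groups compared the adjusted p was 0.095. Under salt it had 0 counts in all 3 FKBP57 knockout libraries, against 9.46, 8.05 and 9.51 CPM in the FKBP73 knockout, at least 306-fold lower (edgeR adjusted p = 5.2e-05), and wild type had 8.42, 5.65 and 11.3 CPM. The transcript was thus near absent in 1 genotype and at a similar low level in the others.

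Os07g0456400 of chromosome 7 was a smaller and tighter difference. Under salt it had 24.7, 23.8 and 22.3 CPM in the FKBP57 knockout, against 57.1, 54.2 and 53.5 CPM in the FKBP73 knockout, a log2 ratio of -1.22 with an SE of 0.14 (adjusted p = 0.00084, edgeR). Under control it was -1.15 (SE 0.14, edgeR adjusted p = 0.0013), with 20, 17.6 and 24.9 CPM in the FKBP57 knockout and 50.2, 45.1 and 43.6 CPM in the FKBP73 knockout. The control call was lost in a fit of only the control groups compared (edgeR adjusted p = 0.34). Wild type had 54.9, 61.0 and 62.8 CPM under salt and 43.2, 55.3 and 47.6 CPM under control, again with the FKBP73 knockout.

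**Figure D2:**
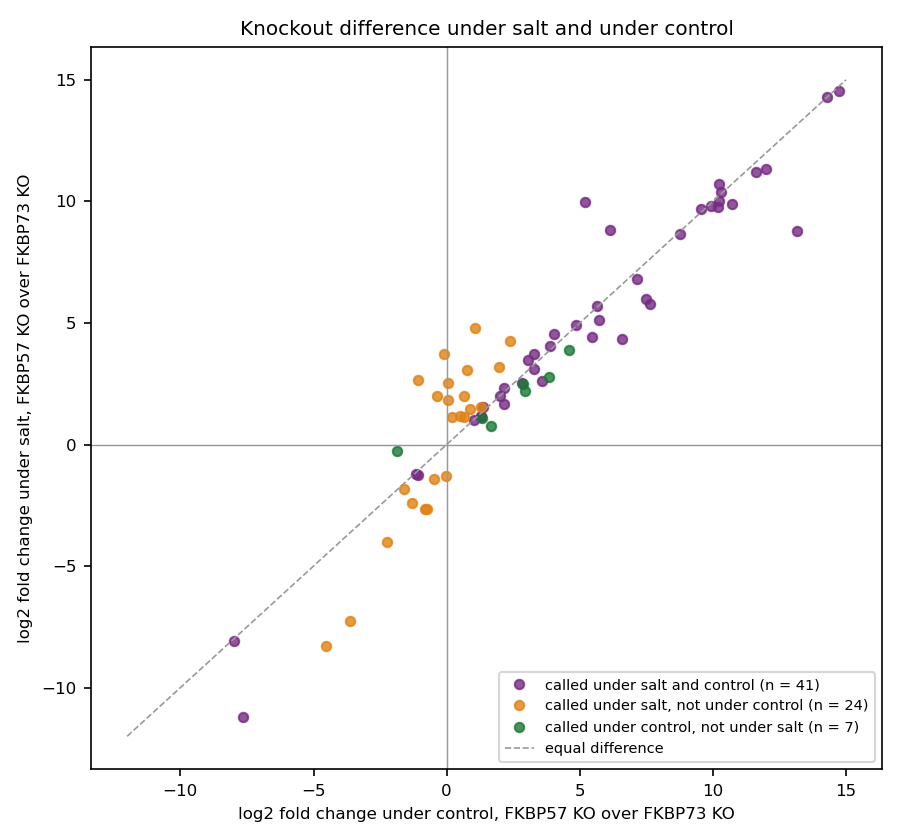
Log2 fold change of the FKBP57 knockout over the FKBP73 knockout under salt (y axis) and under control (x axis) for every gene called in either comparison; the dashed line marks equal differences. Of the 41 genes called in both, 33 lie within 1 of the line, and the 24 called under salt alone lie closer to 0 on the control axis than on the salt axis; values of genes without counts in 1 group are fitted and have no upper bound.

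The 24 genes called under salt but not under control, 15 higher and 9 lower, were not shown to depend on salt. The higher ones had log2 fold changes of 1.12 to 4.79 under salt and of -1.08 to 2.39 under control. The lower ones had -8.31 to -1.29 under salt and -4.55 to -0.03 under control. For 21 of the 24 the control value had the same sign, and in 13 the control libraries of the knockouts did not overlap in that direction. The change of the knockout difference between salt and control was tested directly. By edgeR 0 of 25957 genes (0%) passed, and 879 (3.39%) had an unadjusted p under 0.05. For a gene at 0 in the same knockout under both conditions, such as Os03g0115800 (SE 269), the change could not be estimated. Such genes could not pass, and the test does not decide whether their difference changed. DESeq2 passed 13. The smallest edgeR adjusted p was 0.6, so by this test no gene can be named whose knockout difference changed with salt.

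Wild type was set beside the knockouts for the 65 genes, as a description, since the test that chose them used these libraries. Under salt, the wild-type mean of log2-CPM was nearer to the FKBP73 knockout for 46 of the 52 higher genes and 12 of the 13 lower genes. In the control libraries, which entered that test through the filter, the TMM scaling and the spread, it was nearer to the FKBP73 knockout for 45 of the 52 and 9 of the 13. The FKBP57 knockout controls lay wholly above the wild-type controls for 41 of the 52 higher genes and wholly below them for 7 of the 13 lower genes. The FKBP73 knockout controls were apart from the wild-type controls, in either direction, for 8 of the 52 and 4 of the 13. Among all tested genes the shares apart from wild type were 4.00% for the FKBP57 knockout and 5.90% for the FKBP73 knockout.

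Across both conditions, all 6 FKBP57 knockout libraries were outside the range of the other 12 libraries for 75 of 25957 genes (0.289%), above it for 59 (0.227%) and below it for 16 (0.0616%). The same was true of the 6 FKBP73 knockout libraries for 9 genes (0.0347%) and of the 6 wild-type libraries for 9 genes (0.0347%). Of the 65 genes called under salt, 43 were FKBP57 knockout genes of this kind, 37 higher and 6 lower. This count reuses the salt values that chose the 65, so it is a description and no separate support. Libraries of the FKBP73 knockout stood apart for 4 of the 65, 3 higher and 1 lower. Among the higher genes 1 was in both classes, and for 13 higher and 6 lower genes neither knockout was apart from all other libraries.

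**Figure D3:**
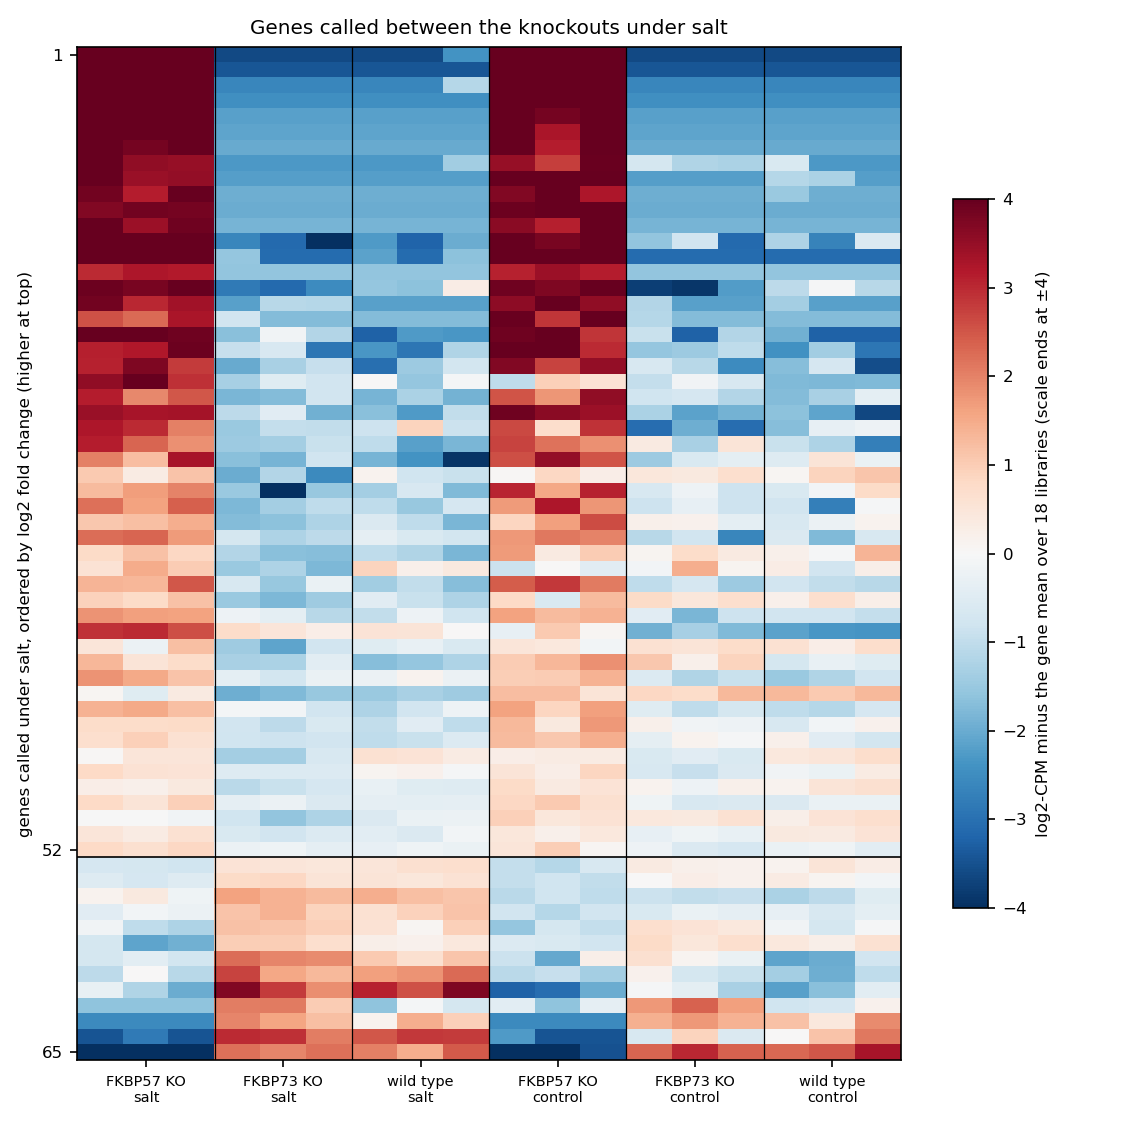
Log2-CPM of the 65 genes called under salt (rows, ordered by log2 fold change, with the 52 higher genes above the line) in 18 libraries (columns, 3 per group), each minus the mean of the gene over all libraries. The FKBP57 knockout columns are set apart under salt and under control, while the FKBP73 knockout and wild-type columns look alike in most rows.

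By their identifiers, the called genes were spread over all 12 chromosomes. Chromosome 1 held the most, with 9 higher and 3 lower genes of 3665 tested (0.327%), and chromosome 12 had the lowest share, with 2 of 1511 (0.132%). Chromosome 7 had the highest share, with 6 higher genes and 1 lower gene of 1924 (0.364%). The genes of chromosomes 3, 10, 11 and 12 were all higher in the FKBP57 knockout. Some called genes were neighbours. Of 53 pairs of consecutive called genes on a chromosome, 7 had at most 5 tested genes between them, and the median pair had 129. In 5 of these 7 pairs both genes differed in the same direction. Since 52 of the 65 called genes were higher, most of the 53 pairs agreed in direction, near or not. The neighbours included 3 genes in a row on chromosome 7 that were all higher, with log2 fold changes of 4.27, 5.13 and 4.42 under salt. Reads of near-identical copies or of overlapping genes may not have been told apart in the authors' counting.

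**Figure D4:**
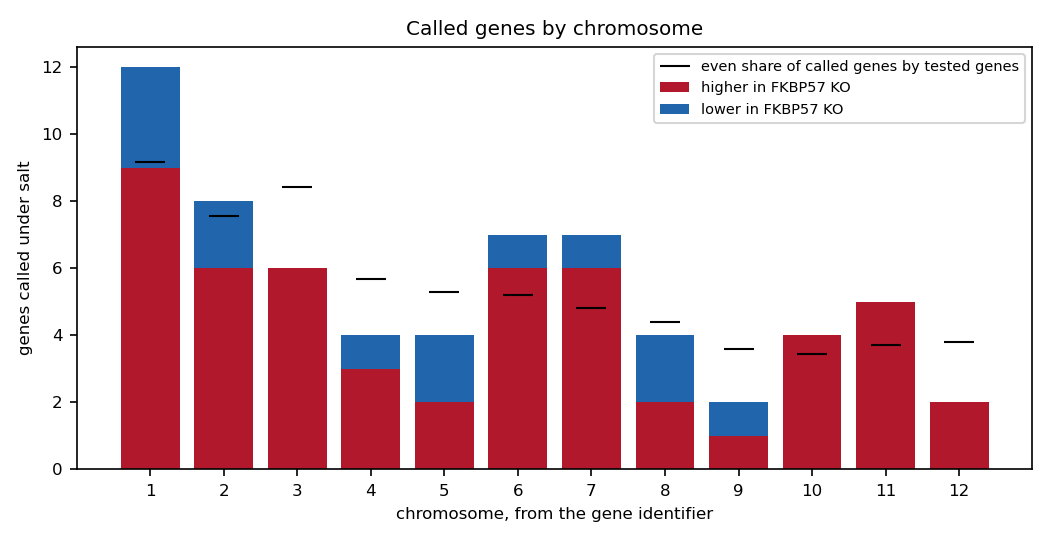
Number of genes called between the knockouts under salt (y axis) on each of the 12 rice chromosomes (x axis), higher in the FKBP57 knockout in red and lower in blue. The black marks show how the 65 genes would divide by the number of genes tested on each chromosome; chromosome 1 holds 12 and chromosomes 9 and 12 hold 2 each.

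No gene of the SOS pathway itself was called between the knockouts under salt. With 0.250% of all tested genes called, lists as short as this one and those below would rarely hold a called gene. Members of a list share the same libraries, and the lists were chosen with earlier results of these data known. Shares of a list without overlap, or with a low unadjusted p, are thus descriptions here and below. The 3 SOS genes on the list (the antiporter, the kinase and the calcium sensor) summed to 302.2, 313.1 and 249.3 CPM in the FKBP57 knockout, against 298.4, 274.7 and 294.3 CPM in the FKBP73 knockout. These values overlapped. Single members had log2 fold changes from -0.28 to 0.15, and the smallest edgeR adjusted p was 0.83. The libraries of the knockouts did not overlap for 1 of the 3, lower in the FKBP57 knockout, against 9.33% of all tested genes. Their 95% intervals together ran from -0.72 to 1.02, so a difference of about 2-fold was not excluded for every member. Wild type under salt had 307.8, 326.4 and 329.1 CPM.

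Other sodium and potassium transport genes were not called either. The 10 HKT transporters, which retrieve sodium from the xylem or take up sodium and potassium, and NHX antiporters, which load sodium into the vacuole, had a median log2 fold change of -0.43. Their summed level was 412.3, 452.1 and 296.6 CPM in the FKBP57 knockout, below 537.1, 491.9 and 483.5 CPM in the FKBP73 knockout. The libraries did not overlap for 3 of the 10 members, all lower, against 9.33% of all tested genes, and none was called (smallest edgeR adjusted p = 0.78). Of the 10, 8 had negative and 2 positive log2 fold changes. A positive member, at 0 in all FKBP73 knockout salt libraries, had a fitted value of 4.38 with an SE of 2.15 (edgeR unadjusted p = 0.062). No member was higher without overlap, so this one also lacked counts in an FKBP57 knockout salt library. Of the list, 1 member was at 0 in FKBP57 knockout salt 1 and 1 in salt 2, and none in salt 3. The 7 HAK and AKT1 potassium uptake genes had a median of 0, with 4 positive and 3 negative. A member at 0 in all FKBP73 knockout salt libraries had a fitted value of 7.92 (edgeR unadjusted p = 0.012, adjusted p = 0.54). The smallest edgeR adjusted p, 0.12, was that of another member, with log2 fold changes of 1.99 under salt and 1.77 under control. DESeq2 called 1 of these 7.

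No gene of abscisic acid, the hormone of water deficit, passed the test, though most of the members measured had negative log2 fold changes. All 10 LEA protein and dehydrin genes, whose products protect drying cells, had negative log2 fold changes, from -1.85 to -0.16 with a median of -0.47, where 51.4% of all tested genes were positive, 48.6% negative and the median of all was 0.01. The list summed to 2208, 2269 and 2153 CPM in the FKBP57 knockout and to 2768, 3511 and 2467 CPM in the FKBP73 knockout, with no overlap. Wild type under salt spanned both, at 2947, 1158 and 4349 CPM. Single members had wide intervals, from -3.46 to 2.07, and the smallest edgeR adjusted p was 0.7. Under control the list median was -1.69, at low levels that overlapped. The control sums were 66.3, 211 and 73.8 CPM in the FKBP57 knockout and 74.2, 290.4 and 324.8 CPM in the FKBP73 knockout. Up to 2 of the 10 members were at 0 in a library. All 9 ABF-type bZIP and HD-Zip factors, which switch on abscisic acid responsive genes, were negative under salt too, at -0.95 to -0.08 with a median of -0.13. Under control their median was -0.31, with 7 negative and 2 positive. The 9 clade A PP2C phosphatases, which hold the pathway off, had a median of -0.17 under salt. The 10 SAPK kinases, which those phosphatases restrain, had a median of -0.09, and the 8 genes of abscisic acid synthesis and breakdown -0.31. No member of these lists was called.

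Jasmonate genes had lower summed levels in the FKBP57 knockout than in both other genotypes under salt, with no single gene called by edgeR. The 14 tested genes of jasmonate synthesis and JAZ repressors, the proteins that block jasmonate responses and are induced by the hormone, had a median log2 fold change of -0.41 (-1.16 to 0.13). They summed to 824.6, 935.0 and 689.7 CPM in the FKBP57 knockout, below 1168, 1254 and 1165 CPM in the FKBP73 knockout and 1213, 1042 and 1268 CPM in wild type. The libraries of the knockouts did not overlap for 7 of the 14, all lower, against 9.33% of all tested genes. At an unadjusted p under 0.05 there were 6 of the 14, against 6.41% of all genes. After adjustment over all genes none was called by edgeR (smallest adjusted p = 0.2), and DESeq2 called 1. Under control the list median was 0.19.

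Log2 fold changes were positive for all photosynthesis and secondary wall genes on the lists, and none passed the test. All 21 photosynthesis genes, encoding Rubisco, light-harvesting and photosystem proteins and Calvin cycle enzymes, had positive log2 fold changes under salt, from 0.47 to 1.89 with a median of 0.81. Under control the list median was 0.48, with 18 members positive and 3 negative. For 12 of the 21 the salt libraries of the knockouts did not overlap, against 9.91% of all tested genes, but none was called under salt (smallest edgeR adjusted p = 0.64). The summed levels given above show the spread behind this: FKBP73 knockout salt 2 was at 8605 CPM and salt 3 at 19527 CPM. Wild type under salt spanned 10787 to 24649 CPM and overlapped both knockouts.

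The 3 secondary wall cellulose synthases, which build the walls of vessels and fibres, had 274.8, 193.3 and 194.8 summed CPM in the FKBP57 knockout, against 102.1, 132.3 and 166.3 CPM in the FKBP73 knockout. All 3 members were without overlap, against 9.91% of all tested genes, and had log2 fold changes of 0.62 to 0.73, yet none was called (smallest edgeR adjusted p = 0.76). Under control the list median was -0.35, of the other sign, and the change between salt and control was called for no member (edgeR). The 6 primary wall cellulose synthases had a median of 0.29, with 5 positive and 1 negative.

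The remaining lists held no gene called by edgeR either, and DESeq2 called 1 of the dividing tissue markers. The medians were 0.2 for heat shock proteins and factors, 0.19 for catalases, ascorbate peroxidases and superoxide dismutases, and 0.07 for proline, trehalose and betaine synthesis. They were -0.18 for stress NAC and DREB transcription factors, -0.06 for PIP aquaporins, 0.07 for clock genes, 0.21 for nitrate reduction and ammonium assimilation, and -0.45 for the 5 chlorophyll breakdown genes, all negative. The nitrate median was -0.09 without FKBP57 knockout salt 3, and the heat shock median was -0.29 with only genes of at least 5 CPM. Over the alternatives the PIP median ran from -0.26 to 0.1 and the clock median from -0.01 to 0.16, so none of these 4 lists has a settled direction. Over all lists, 22 of the 186 tested members had an unadjusted p under 0.05, where 6.41% of all tested genes did.

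**Figure D5:**
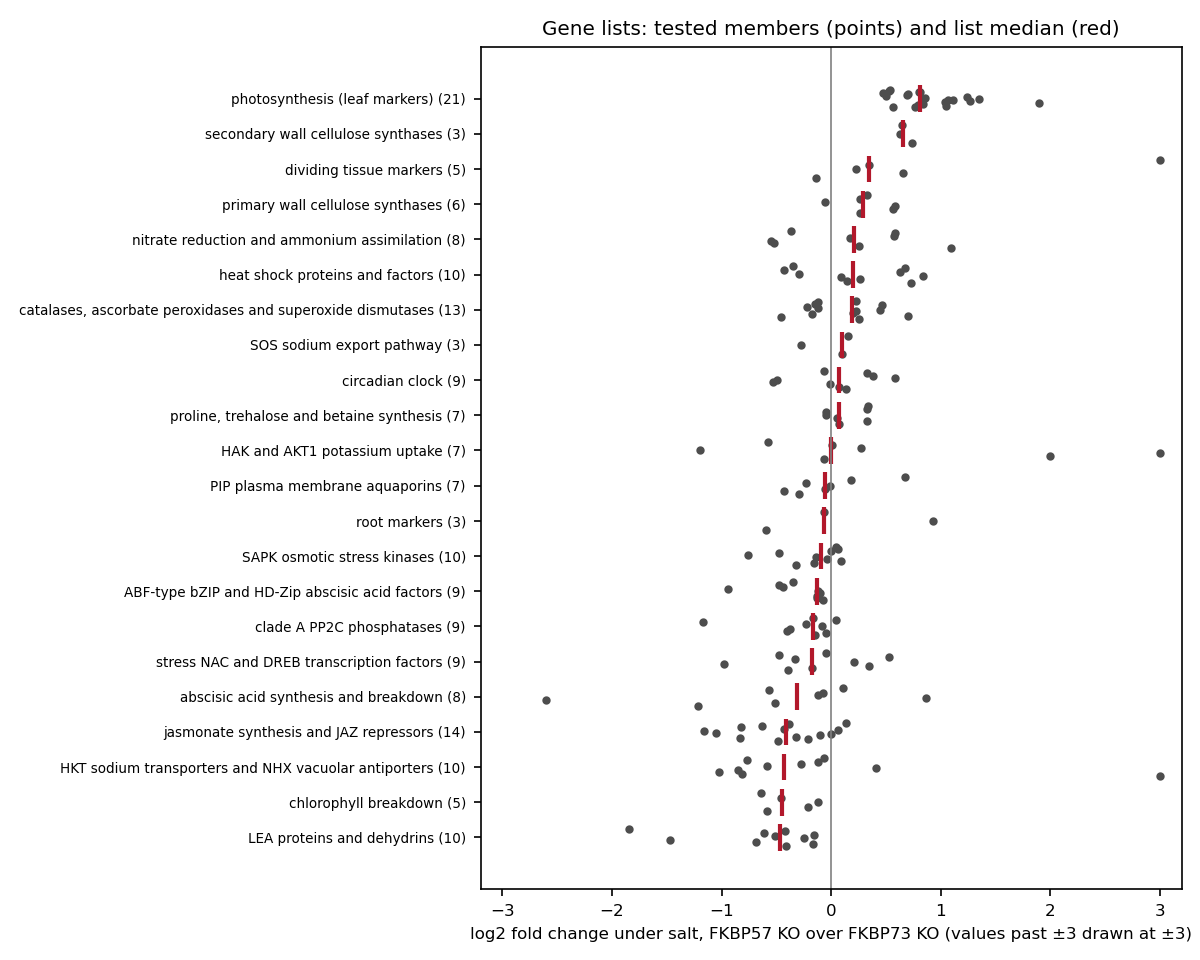
Log2 fold change under salt, FKBP57 knockout over FKBP73 knockout (x axis), of each tested member (points) of 22 gene lists (y axis, number of tested members in brackets), with the list median in red. Photosynthesis members lie wholly above 0 and LEA and dehydrin members wholly below 0, and edgeR called no member of any list.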

How the data were processed

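The authors deposited whole-number counts of reads per gene for 18 libraries, in 1 table of 37863 genes. Per the submitters' processing notes, fastp 0.22.0 and HTSeq 0.9.1 were used with the build IRGSP-1.0. The sources used here do not give the aligner, annotation release or strand setting. Per the labels' protocols, mRNA was selected on poly-T beads and sequenced on an Illumina NovaSeq. The series design calls the 3 libraries of a group biological replicates.

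The counts were fitted with edgeR 4.0.16 (R 4.3.3) as 6 group means over all 18 libraries, leaving 12 residual degrees of freedom. filterByExpr (minimum count 10, minimum total 15) kept 25957 genes, and totals were scaled by TMM. A prior count of 2 was added for log2-CPM, and a standard error is the size of the log2 fold change over the square root of its F value. The code was tested on simulated data. Alternatives were DESeq2 1.42.0, RLE, library size alone, other filters, only the groups compared, a replicate block and each replicate left out.

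Membership of the 22 gene lists was written down from general knowledge of rice identifiers, could not be checked against an annotation and may hold errors. The lists and the comparisons were chosen with earlier results of these data known. Of 200 members, 186 were tested. Identifiers are printed without names, because the reference table (assembly ASM3414082v1) matched only 1. Those printed are, per comparison, the 2 higher and 2 lower called genes of largest fold change whose libraries did not overlap and whose higher group averaged 10 CPM or more. Chromosomes were read from the identifiers. Intervals and floors cover the fit and counting error only.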

Additional observations from a re-analysis of the deposited data

How the results depend on the processing

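None of the 6 printed genes changed direction under the alternatives; for the other called genes the counts alone were compared. The salt count of 65 was 25 with genes of at least 5 CPM and 224 by DESeq2, and 31 to 51 when 1 library of the compared groups was left out. The control count of 48 was 14 with genes of at least 5 CPM, 2 in a fit of only the 6 libraries compared and 115 by DESeq2, and 27 to 56 with 1 library left out (27 without FKBP73 knockout control 1, 30 without control 3). The change of the difference between salt and control stayed at 0 genes in each edgeR fit and was 13 by DESeq2. The cause of these shifts was not tested, except that the filter tests fewer genes (15966) and the smaller fits use fewer libraries. Library size alone shifted the median of all genes under control to -0.028, from 0.086 with TMM, and under salt to -0.014.

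With the replicate number as a block, 59, 34 and 0 genes were called under salt, under control and for the change. The numbers did not pair the samples: deviations of same-numbered libraries correlated at 0.11, -0.24 and -0.02 under salt, and not every library correlated best with its own number. In the fit of the control groups alone, Os03g0299700 (edgeR adjusted p = 0.059), Os01g0382450 (0.095) and Os07g0456400 (0.34) did not pass, and nor did Os09g0344500 (0.064) in the fit of the salt groups alone. Of 22 list medians under salt, those of photosynthesis (0.57 to 1.22), secondary wall (0.51 to 0.82), jasmonate (-0.61 to -0.27) and LEA genes (-0.62 to -0.35) kept their sign in each alternative, while the SOS median ran from -0.09 to 0.2. With 3 libraries a group, all 65 genes called under salt and all 48 called under control differed at least 2-fold. Differences under 2-fold thus went uncalled in genes of low and high counts alike.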
